A study of Mus musculus with 24 samples.

Results

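The organic ion and drug transporters of the mouse kidney were followed through ureter obstruction and repair. These are the protein-coding genes whose symbols begin with Slc22a, Slco, Slc47a, Abcb, Abcc or Abcg followed by a number. The deposited table holds 45 of them among 14785 genes, of which 13071 are protein coding: 20 Slc22a genes, 8 Abcc, 7 Abcb, 7 Slco, 2 Abcg and 1 Slc47a. Genes were taken by symbol from those in the table, in which every gene averaged at least 1 FPKM. The samples were bulk polyA RNA-seq libraries from kidneys of 24 male C57/BL6 mice, aged 8 weeks in the sample labels and 8 to 9 weeks at the start in the design text, and the series title calls the tissue cortical. There were 6 groups of 4 animals: sham surgery (sham), 2 days of ureter ligation (UUO2), 7 days of ureter ligation (UUO7), and 7 days of ligation followed by reimplantation of the ureter with 1 week (R1W), 2 weeks (R2W) or 4 weeks (R4W) of recovery. One sham group stood for all times, so no sham of the age of the R4W animals was compared. Only some animals of each group were sequenced, and how they were selected is not given in the sources used here.

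Proximal tubule cells clear drugs, toxins and metabolites from blood into urine. Carriers of the Slc22 family take organic anions and cations up at the basolateral side, in part by exchange against dicarboxylates that sodium-coupled carriers and the sodium pump keep high inside the cell. Other Slc22 carriers, Slc47a1 and the ATP-driven Abcc2, Abcc4 and Abcg2 work at the luminal side, while Slco genes encode polypeptides that carry bile acids, steroid conjugates, thyroid hormone and prostaglandins. Some members serve other cells: Abcg1 exports cholesterol, with much of its known role in macrophages, Abcc9 is a subunit of potassium channels in vascular cells, and several Abcb proteins sit in mitochondria.

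Values are FPKM, fragments scaled for transcript length and library depth, a unit inferred from the table, so levels of different genes can be set side by side. Fold changes are differences of mean log2(FPKM + 1), which understates the change of low genes. FPKM are relative to each library's total, and the median gene stood 0.42 higher in UUO7 than in sham on this scale with the deposited values, and 0.01 higher after a rescaling that sets the typical gene to the same level in every library (each library divided by its median ratio to the genes' geometric means). A gene was therefore called higher or lower where limma's Benjamini-Hochberg adjusted p over all 14785 genes was under 0.05 in the same direction with both scalings. All printed folds, SEs and p-values are from the deposited values.

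The libraries held the markers of the kidney: the 8 proximal tubule markers summed to means of 6314, 1696 and 3624 FPKM in sham, UUO7 and R4W. Of these markers 8 of 8 were lower in UUO7 than in sham, where 17.8% of all genes were. The 7 macrophage markers summed to 49.2 to 82.8 FPKM in sham and 951 to 1141 in UUO7. Sham replicate 2 stood apart from the other 3 sham libraries, with a urothelium sum of 30.4 FPKM against 1.42 to 2.17 and an adipose sum of 281 against 39.8 to 48.1. An adipose sum of 1558 FPKM was found in R4W replicate 1, against 62.0 to 384 in the other R4W libraries. UUO2 libraries stood apart as a group, with 2343 to 2832 FPKM of the mitochondrial ribosomal RNA mt-Rnr1 against 342 to 709 elsewhere, and the design text gives fewer libraries as multiplexed together than there are samples, so any difference in preparation and 2 days of obstruction cannot be told apart. Within UUO2, replicate 2 had a thick limb and distal marker sum of 2233 FPKM against 973 to 1231 in the other 3, and a proximal tubule sum of 3696 against 2450.3 to 2929. R4W replicate 2 carries a 4-week title and a 2-week treatment label and was grouped by its title.

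Transport genes were abundant in sham kidney and fell during obstruction. Their summed level was 3975 ± 294 FPKM in sham (SD, n = 4), 2220 ± 174 in UUO2 and 1398 ± 130 in UUO7, which is 35.2% of the sham mean. After reversal it was 2004 ± 446 in R1W, 2186 ± 528 in R2W and 2376 ± 210 in R4W, or 59.8% of sham. The Slc22a genes made up most of this, summing to 3094 FPKM in sham, to 861 in UUO7 and to 1742 in R4W. In sham 11 of the 45 genes exceeded 100 FPKM, and in UUO7 2 did, the urate carrier Slc22a12 and Slc22a18. The 8 proximal tubule markers stood at 26.9% of their sham sum in UUO7 and 57.4% in R4W. In bulk tissue fewer tubule cells and less RNA per cell cannot be told apart.

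At 2 days 31 of 45 transporters differed from sham, 6 higher and 25 lower, where 42.1% of all genes did, 25.1% higher and 17.0% lower. At 7 days 37 differed, 9 higher and 28 lower, where 54.3% of all genes did, 36.5% higher and 17.8% lower. The median log2 fold change of the 45 was −0.41 at 2 days and −0.71 at 7 days, against 0.09 and 0.42 over all genes. With sham replicate 2 left out, 33 and 39 transporters were called, and without UUO2 replicate 2 the count at 2 days was 32. UUO2 and UUO7 share the sham animals as reference.

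**Figure D1:**
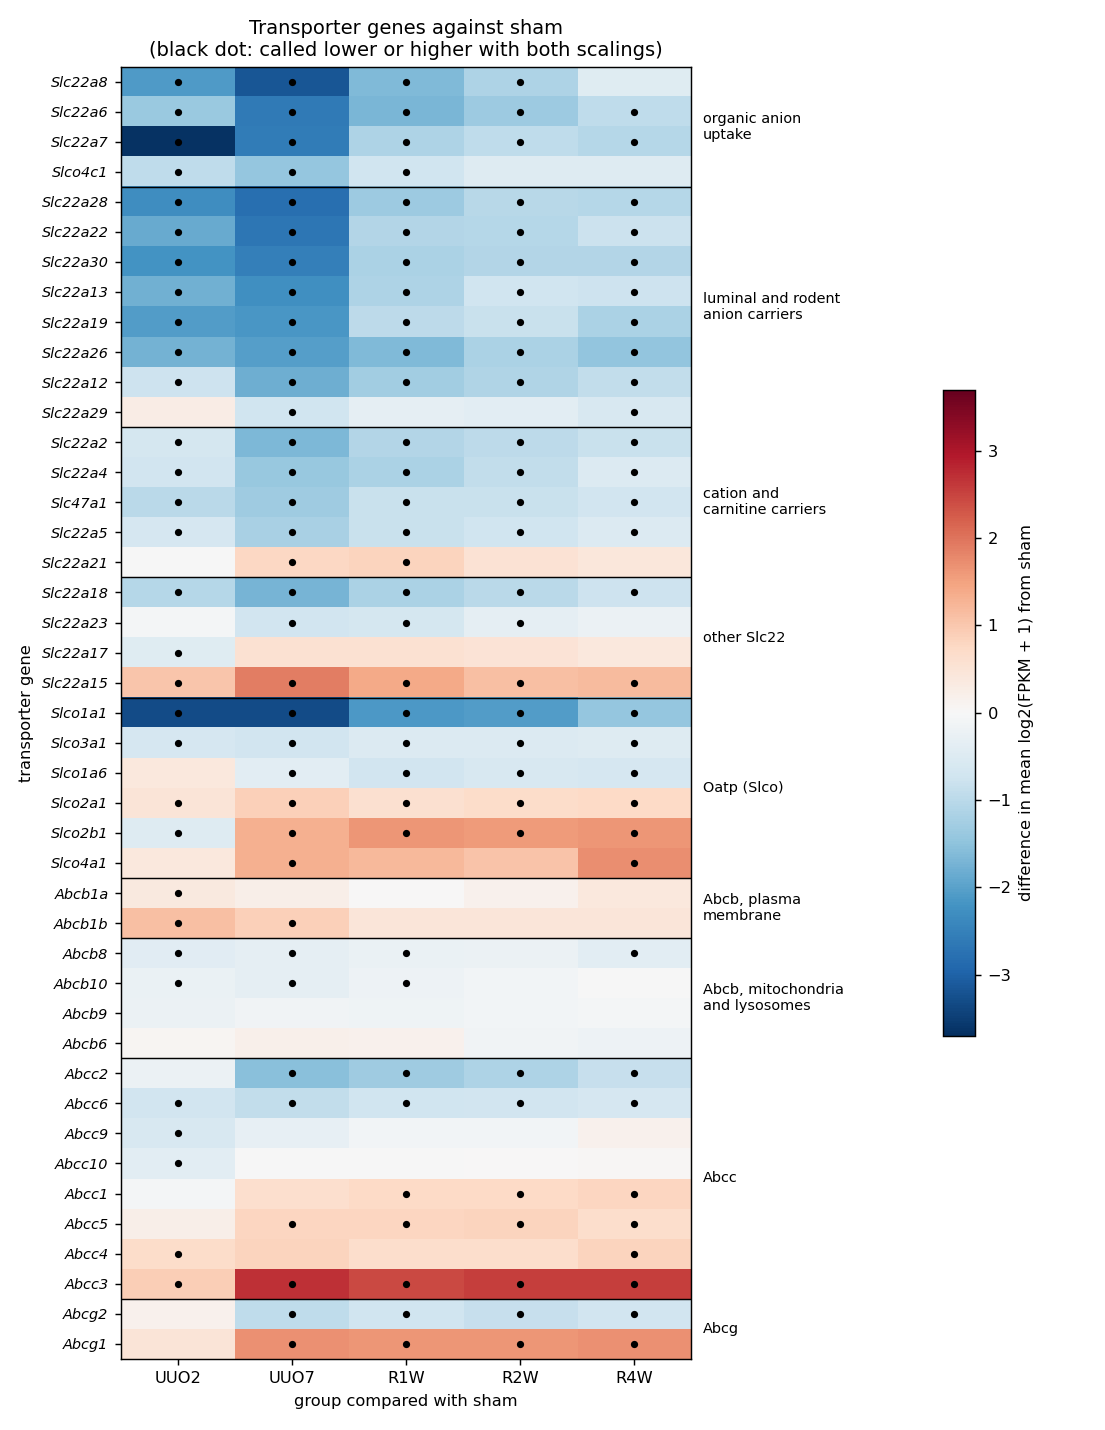
Change of 43 transporters against sham, as the difference of mean log2(FPKM + 1), in the 5 other groups (columns), with genes in rows ordered by role. Blue is lower and red is higher than sham, and a black dot marks a difference called with both scalings; the organic anion carriers of the top 2 blocks are blue throughout, apart from Slc22a29 in UUO2, and Abcc3, Abcg1, Slco2b1 and Slc22a15 are red from 7 days on.

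Slc22a6, Slc22a7, Slc22a8 and Slco4c1, 4 carriers of organic anions, were all lower in UUO7, where 17.8% of all genes were. Slc22a6 (OAT1), the classic para-aminohippurate carrier, measured 285, 252, 273 and 269 FPKM in the 4 sham animals, 99.2, 148, 87.9 and 87.9 in UUO2, and 51.6, 51.0, 36.9 and 35.6 in UUO7. The 3 groups did not overlap and stepped down in that order. UUO2 replicate 2, the library with the highest UUO2 tubule marker sums, was the highest UUO2 animal in Slc22a6, Slc22a8 and Slco4c1, and the part of those sums in its values was not tested. The fold change was −1.38 (SE 0.23, adjusted p = 4.6e-05) at 2 days and −2.62 (SE 0.23, adjusted p = 2.4e-09) at 7 days. Slc22a8 (OAT3), which carries drugs and sulfate conjugates, measured 98.3, 122, 103 and 98.2 FPKM in sham, 22.3, 31.3, 21.8 and 21.5 in UUO2, and 12.4, 14.5, 9.58 and 8.06 in UUO7. No UUO2 animal reached the lowest sham animal, and no UUO7 animal reached the lowest UUO2 animal. Its fold change at 7 days was −3.16 (SE 0.27, adjusted p = 2.0e-09), leaving 10.6% of the sham mean. Slco4c1, a basolateral carrier of digoxin and thyroid hormone, had means of 5.33 FPKM in sham, 2.52 in UUO2 and 1.34 in UUO7. Sham and UUO7 did not overlap, while UUO2 replicate 2 at 5.11 FPKM lay within the sham range of 4.31 to 6.38.

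Slc22a7 (OAT2), which carries nucleotides and small anions, took a different course, with its lowest values at 2 days. It measured 273, 202, 248 and 268 FPKM in sham, 14.7, 18.9, 25.8 and 16.0 in UUO2, and 43.2, 47.7, 41.2 and 30.3 in UUO7. All UUO2 values lay below all UUO7 values, and both groups lay far below sham. The fold change at 2 days was −3.67 (SE 0.29, adjusted p = 4.4e-09), the greatest fall of any of the 45 genes in that comparison. From 2 to 7 days it rose by 1.08 on the log2 scale (SE 0.29, adjusted p = 0.0024). That rise lost its call in 6 of the 8 fits that left out 1 library, namely UUO2 replicates 1, 2 and 4 and UUO7 replicates 1, 2 and 3, with fold changes of 0.98 to 1.23. It also lost its call with a pseudocount of 10.

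**Figure D2:**
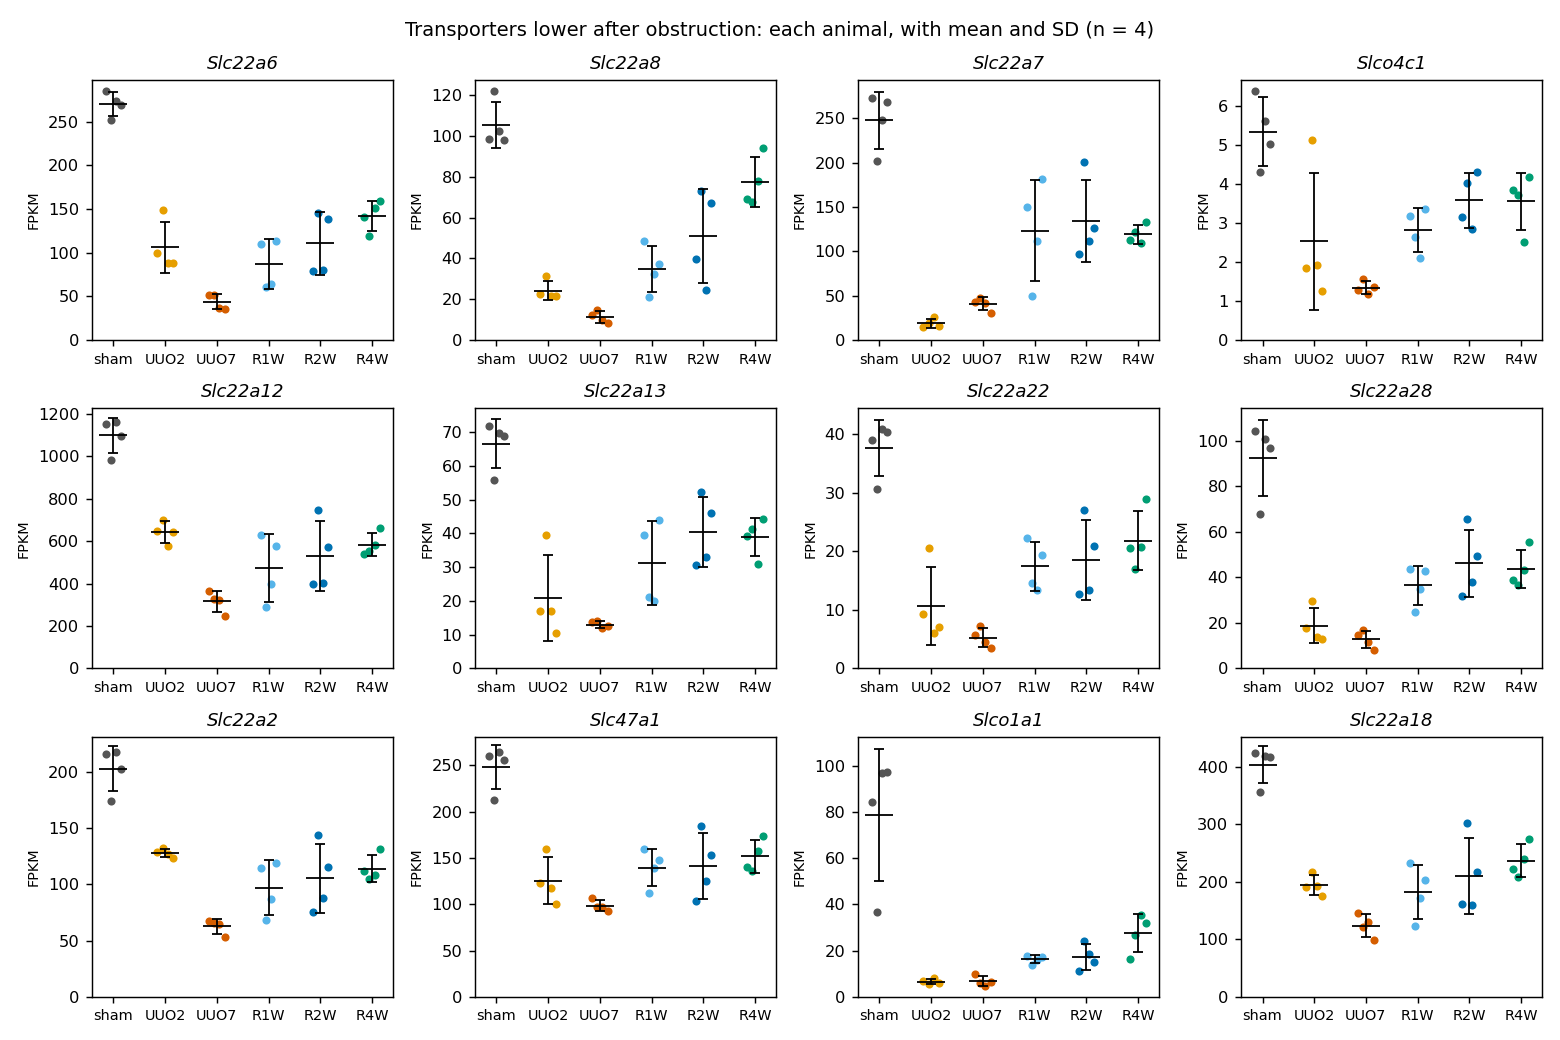
FPKM of 12 transporters (linear axes from 0) in the 6 groups, each point 1 animal, with mean and SD (n = 4). Slc22a6 and Slc22a8 step down from sham to UUO2 to UUO7, Slc22a7 and Slco1a1 are near their lowest at 2 days, and all 12 have an R4W mean above their UUO7 mean.

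Slc22a6 and Slc22a8 are neighbours at the end of a run of 7 transporters on chromosome 19 (chr19:7673061-8628299), which also holds the rodent anion carriers Slc22a19, Slc22a26, Slc22a28, Slc22a29 and Slc22a30. No other measured gene lies between them, and all 7 were lower in UUO7, where 17.8% of all genes were. The 150 bases before the RefSeq transcription start (GRCm38.p6, each on its gene's own strand) are shown for Slc22a6 and Slc22a8. Those of Slc22a12, which lies elsewhere on the same chromosome, are shown with them. Each of these genes was lower in UUO7 than in sham and had an R4W mean above its UUO7 mean.
Slc22a6 promoter, chr19:8617846-8617995, plus strand: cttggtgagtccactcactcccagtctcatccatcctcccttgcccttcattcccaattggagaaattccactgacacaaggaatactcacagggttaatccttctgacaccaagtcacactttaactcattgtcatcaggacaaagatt
Slc22a8 promoter, chr19:8593032-8593181, plus strand: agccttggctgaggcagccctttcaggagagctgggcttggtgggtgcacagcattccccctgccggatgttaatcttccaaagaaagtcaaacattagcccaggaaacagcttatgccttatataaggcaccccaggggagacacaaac
Slc22a12 promoter, chr19:6543071-6543220, minus strand: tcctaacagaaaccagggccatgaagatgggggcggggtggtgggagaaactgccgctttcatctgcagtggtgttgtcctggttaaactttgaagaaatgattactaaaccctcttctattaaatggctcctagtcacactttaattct
The RefSeq start used for Slc22a8 lies 1928 bases from the start of the gene in the deposited table. Over the 45 genes 42 RefSeq windows of 250 bases before the start were found. Several genes had multiple windows, and others, Slc22a7 and Abcc3 among them, had none.

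The luminal and rodent-specific carriers of organic anions and urate were lower in UUO7 in 8 of 8 cases, where 17.8% of all genes were. Slc22a12 (URAT1), which reabsorbs urate at the brush border, was the most abundant transporter, with 1154, 984, 1161 and 1098 FPKM in sham, 649, 701, 576 and 643 in UUO2, and 366, 329, 320.2 and 249.04 in UUO7. The groups did not overlap, and the UUO7 mean was 28.8% of sham (fold change −1.81, SE 0.20, adjusted p = 7.8e-08). Slc22a28 measured 104, 67.6, 101 and 96.9 FPKM in sham, 17.8, 29.7, 13.9 and 13.0 in UUO2, and 14.5, 16.6, 11.7 and 8.11 in UUO7. All 8 obstructed kidneys lay below all sham kidneys, and the UUO2 and UUO7 ranges overlapped. Its fold changes were −2.30 and −2.79, and those of Slc22a30 −2.22 and −2.53. These 2 genes share sequence: 37.0% of the 100-base stretches of Slc22a28 transcripts also occur in another gene, most often in Slc22a30, so how reads were split between them is uncertain.

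Slc22a22, which carries prostaglandins, fell to 28.4% of sham in UUO2 and 13.9% in UUO7, with 30.7 to 41.0 FPKM in sham and 3.53 to 7.20 in UUO7. The nicotinate and urate carrier Slc22a13 fell to 31.4% and 19.4%, though 21.8% of its transcript stretches recur in another gene, mostly the pseudogene Slc22a13b-ps. Slc22a19 (OAT5), a luminal exchanger of sulfate conjugates, fell to 23.3% and 21.8%, and Slc22a26 to 26.2% and 20.1%. For these last 2 genes most of the fall was present at 2 days. The same held for Slc22a7, Slco1a1, Slc22a8, Slc22a13, Slc22a18, Slc22a22, Slc22a28 and Slc22a30, among others. Slc22a29 was low throughout, with 1.10 to 2.51 FPKM in sham and 0.33 to 1.18 in UUO7, ranges that overlapped although the difference was called (−0.74, SE 0.22, adjusted p = 0.0041).

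Of the 6 measured carriers of organic cations and carnitine, 5 were lower in UUO7 and 1, Slc22a21, was higher. Over all genes 17.8% were lower and 36.5% higher. Slc22a2 (OCT2), a main basolateral cation carrier of rodent kidney, measured 216, 174, 218 and 202 FPKM in sham, 128, 132, 127 and 123 in UUO2, and 67.6, 65.9, 64.6 and 53.0 in UUO7. The 3 groups stepped down without overlap (UUO7 fold change −1.67, SE 0.17, adjusted p = 1.6e-08). Slc47a1 (MATE1), the luminal exit for cations, measured 213 to 264 FPKM in sham, 99.8 to 160.0 in UUO2 and 92.8 to 107 in UUO7. Its fall was largely complete at 2 days, with 50.5% of sham then and 39.7% at 7 days. The carnitine carrier Slc22a5 (OCTN2) stood at 65.0% and 42.8% of sham, and the ergothioneine carrier Slc22a4 at 59.8% and 35.9%. Slc22a21, a second carnitine carrier, went up, from 2.23 to 3.19 FPKM in sham to 4.32 to 6.29 in UUO7 (0.77, SE 0.16, adjusted p = 1.8e-04), with 10.6% of its stretches shared, mostly with Slc22a5. Among other Slc22 genes Slc22a18 fell from 357 to 423 FPKM in sham to 98.4 to 146 in UUO7.

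Between 2 and 7 days of obstruction 23 transporters differed, 8 higher and 15 lower, where 44.7% of all genes did, 30.0% higher and 14.7% lower; the split was 12 higher and 15 lower on the deposited values alone and 8 higher and 26 lower on the rescaled values alone. Abcc2, Abcg2, Slco1a6, Slc22a23 and Slc22a29 were lower than sham at 7 days and not called lower at 2 days. Abcg2 (BCRP), a luminal pump for urate and drugs, measured 169, 149.14, 173 and 160.0 FPKM in sham, 192, 172, 198 and 168 in UUO2, and 82.0, 94.7, 88.0 and 71.6 in UUO7. Sham and UUO2 overlapped, and all UUO7 values lay below both. Between 2 and 7 days it fell by 1.11 on the log2 scale (SE 0.13, adjusted p = 4.0e-07). Abcc2 (MRP2), a luminal pump for glutathione and glucuronide conjugates, had means of 49.5, 42.7 and 16.2 FPKM in sham, UUO2 and UUO7 and fell by 1.34 between 2 and 7 days (SE 0.14, adjusted p = 9.1e-08). The UUO2 libraries also had the high mt-Rnr1 values given above, whose part in these 2-day levels was not tested.

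**Figure D3:**
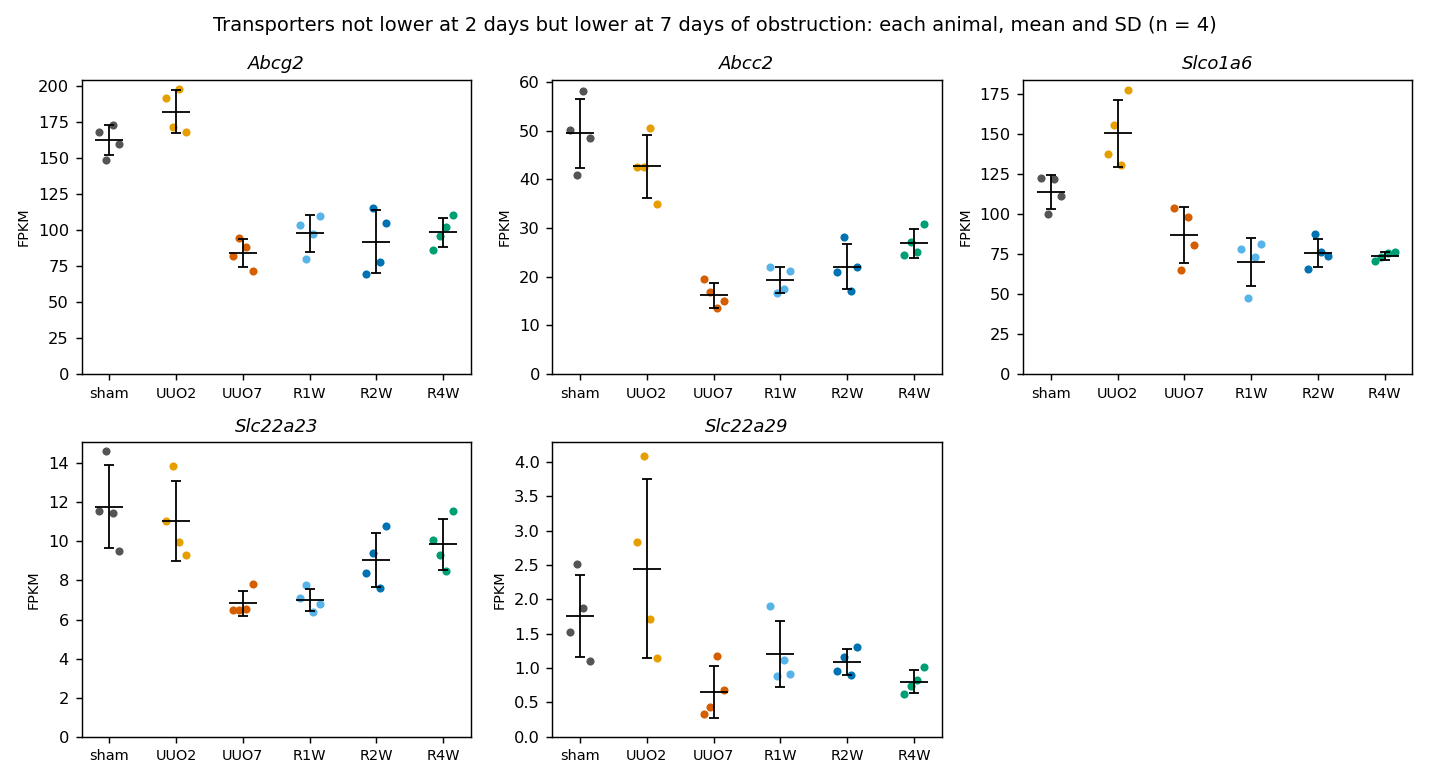
FPKM of 5 transporters that were lower at 7 but not at 2 days of obstruction (linear axes from 0), each point 1 animal, with mean and SD (n = 4). UUO2 overlaps sham in Abcg2, Abcc2, Slc22a23 and Slc22a29 and lies above it in Slco1a6, and UUO7 means are below sham in all 5.

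Of 6 organic anion transporting polypeptides 3 were lower and 3 higher in UUO7, where 17.8% of all genes were lower and 36.5% higher. Slco1a1, a carrier of bile acids and steroid sulfates, measured 84.1, 36.6, 96.8 and 97.3 FPKM in sham, 6.83, 5.53, 7.94 and 6.13 in UUO2, and 9.80, 6.10, 4.73 and 6.33 in UUO7. Obstructed kidneys of both times lay far below every sham kidney, including the low sham replicate 2, and overlapped each other. The fold changes were −3.30 at 2 days (SE 0.28, adjusted p = 1.3e-08) and −3.31 at 7 days (SE 0.28, adjusted p = 1.6e-09). Its relative Slco1a6 measured 123, 100.1, 122 and 111 FPKM in sham, 138, 156, 131 and 178 in UUO2, and 104, 65.4, 98.2 and 81.0 in UUO7. All UUO2 values lay above sham, a difference of 0.39 (SE 0.15, adjusted p = 0.035) that was not called with rescaled values (adjusted p = 0.23). The authors' deposited table has the opposite direction for this comparison, a log2 fold change of −0.62 with an adjusted p of 2.37e-06. UUO7 overlapped sham and was called lower (−0.40, SE 0.15, adjusted p = 0.019), a call lost without sham replicate 1 or without UUO7 replicate 2, with fold changes of −0.49 to −0.27 over the fits leaving out 1 library. Slco3a1 fell from 57.3 to 73.4 FPKM in sham to 40.1 to 44.4 in UUO7.

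Slco2a1, Slco2b1 and Slco4a1 were higher in UUO7. Slco2a1, which takes up prostaglandins for breakdown, measured 4.80, 5.21, 4.56 and 4.39 FPKM in sham, 6.27, 7.90, 6.38 and 7.34 in UUO2, and 9.33, 9.33, 9.15 and 10.4 in UUO7. The groups did not overlap and rose in that order (UUO7 fold change 0.88, SE 0.11, adjusted p = 2.8e-07). Slco2b1, a carrier of steroid sulfates, measured 3.54, 4.34, 3.18 and 2.84 FPKM in sham, 2.36, 3.39, 1.42 and 1.86 in UUO2, and 9.22, 10.9, 9.52 and 10.98 in UUO7. It was lower than sham at 2 days (−0.48, SE 0.14, adjusted p = 0.0060), with UUO2 replicate 2 inside the sham range, and higher than every sham animal at 7 days (1.32, SE 0.14, adjusted p = 2.3e-08). Slco4a1, a thyroid hormone carrier, measured 4.56, 27.3, 4.40 and 8.47 FPKM in sham and 24.8, 21.6, 18.8 and 26.5 in UUO7. Sham replicate 2 exceeded all UUO7 animals, and without it the fold change was 1.85 in place of 1.33 (SE 0.38, adjusted p = 0.0032). The call was lost without sham replicate 1, 3 or 4 or UUO7 replicate 1 or 4.

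The greatest rises were seen in genes that were low in sham. Abcc3 (MRP3), a basolateral pump for glucuronides, measured 0.33, 1.93, 0.63 and 0.75 FPKM in sham, 2.26, 2.79, 1.53 and 3.28 in UUO2, and 10.2, 11.4, 9.39 and 13.3 in UUO7. UUO2 overlapped sham through sham replicate 2, and every UUO7 value lay above both groups. The fold change was 0.90 at 2 days (SE 0.24, adjusted p = 0.0035) and 2.71 at 7 days (SE 0.24, adjusted p = 2.4e-09), with a UUO7 mean at 1215% of sham. Abcg1, the cholesterol exporter, measured 0.57, 5.16, 0.82 and 0.95 FPKM in sham and 6.36, 6.54, 6.74 and 7.80 in UUO7. Every UUO7 value exceeded sham replicate 2, the highest sham animal (1.70, SE 0.34, adjusted p = 1.1e-04; 2.14 without that library). Slc22a15 measured 0.67, 2.14, 0.68 and 0.72 FPKM in sham, 3.10, 1.96, 3.10 and 4.06 in UUO2, and 6.10, 6.42, 6.45 and 6.57 in UUO7. UUO2 overlapped sham through UUO2 replicate 2 and sham replicate 2, and UUO7 lay above both groups. It rose at both times, by 1.01 (SE 0.19, adjusted p = 1.5e-04) and 1.90 (SE 0.19, adjusted p = 1.2e-08). The macrophage markers rose with these genes in 7 of 7 cases at 7 days, where 36.5% of all genes were higher. Their mean sum went from 60.4 FPKM in sham to 1049 in UUO7 and 1085 in R4W, and their part in the rises was not tested.

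**Figure D4:**
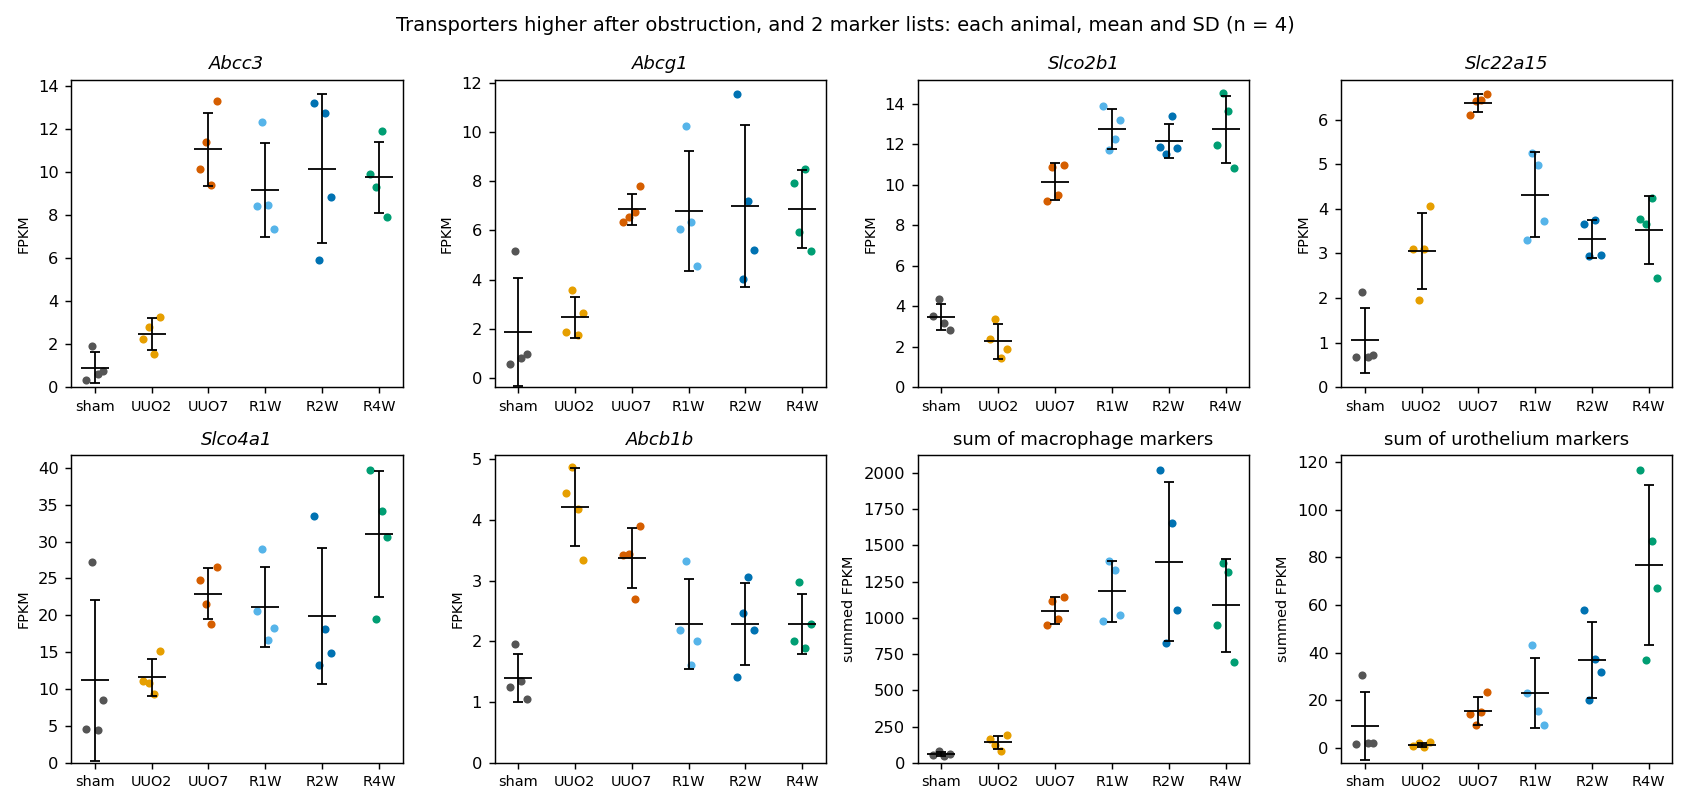
FPKM of 6 transporters that were higher in UUO7, and the summed FPKM of 7 macrophage and 4 urothelium markers, in the 6 groups (linear axes), each point 1 animal, with mean and SD (n = 4). Abcc3, Abcg1 and Slco2b1 are high in UUO7 and stay near that level through R4W, Slc22a15 peaks in UUO7, Abcb1b peaks in UUO2, and the high sham point in Slco4a1 and Abcg1 is replicate 2.

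Of the drug pumps of the plasma membrane, Abcb1b, one of the pair of P-glycoproteins of mice, measured 1.25, 1.96, 1.34 and 1.05 FPKM in sham, 4.45, 4.87, 4.18 and 3.34 in UUO2, and 3.43, 3.44, 2.70 and 3.90 in UUO7. Both obstructed groups lay above every sham animal, by 1.12 (SE 0.17, adjusted p = 1.2e-05) and 0.87 (SE 0.17, adjusted p = 6.6e-05). The other, Abcb1a, moved from 0.81 to 1.08 FPKM in sham to 1.28 to 1.67 in UUO2 (0.37, SE 0.11, adjusted p = 0.0073; not called without UUO2 replicate 3), and was not called at 7 days. Few transcript stretches are shared between them, 9.23% for Abcb1a and 6.04% for Abcb1b. Among Abcc pumps Abcc5, which exports cyclic nucleotides, was higher in UUO7 (0.78, SE 0.14, adjusted p = 4.4e-05; not called without sham replicate 3), and Abcc6 was lower at 47.0% of sham. Abcc1 stood at 166% and the luminal and basolateral pump Abcc4 at 173% of sham in UUO7, and neither was called with rescaled values (adjusted p = 0.10 and 0.084). Abcc9 was lower in UUO2 at 51.1% of sham and not called in UUO7. Among Abcb genes of mitochondria and lysosomes, Abcb8 and Abcb10 were lower in UUO7, at 78.1% and 76.9% of sham. Abcb6 (115% of sham, with 45.2% of its stretches shared, mostly with Gm29253) and Abcb9 (89.5%) were not called, and Abcb6 is lower in the authors' deposited table. Abcc10 and Slc22a17, like Abcc9 and Slco2b1, were lower at 2 days (73.2% and 73.1% of sham) and not called lower at 7 days. Slc22a17 stood at 149.5% of sham in UUO7 on the deposited values, and was not called with rescaled values (adjusted p = 0.30).

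After reversal 12 transporters were called higher in R1W than in UUO7 and 0 lower by limma (23 differed at an unadjusted p under 0.05), where 12.6% of all genes were called, 5.91% higher and 6.73% lower. They included Slc22a6, Slc22a7, Slc22a8 and Slco4c1, and Slc22a2 and Slco1a1. Of the luminal and rodent-specific carriers they included Slc22a13, Slc22a19, Slc22a22, Slc22a28 and Slc22a30. Slc22a8 rose from a UUO7 mean of 11.1 FPKM to 48.4, 21.0, 32.2 and 37.4 in the 4 R1W animals (1.53, SE 0.27, adjusted p = 0.0016). Slc22a7 rose to 149.96, 49.4, 111 and 182 (1.44, SE 0.29, adjusted p = 0.0033). In both genes R1W replicate 2 was the lowest animal and still above all UUO7 animals. That animal also had the lowest R1W sum of proximal tubule markers, 2106 FPKM against 2406 to 3343. The count of 12 was 7 without UUO7 replicate 3 or 4 and 6 without R1W replicate 1 or 4. Leaving out 1 library in turn, Slco4c1 lost its call in 7 of the 8 fits, Slc22a2 in 6, Slc22a6 in 4, and Slc22a13 and Slc22a19 in 3 each.

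By 4 weeks 24 transporters differed from UUO7, 23 higher and 1 lower, where 40.8% of all genes did, 17.6% higher and 23.2% lower. The median log2 fold change of all 45 was 0.32, against −0.08 over all genes. The 1 lower gene was Slc22a15, with 3.77, 3.67, 4.24 and 2.45 FPKM in R4W (−0.72, SE 0.19, adjusted p = 0.0036), all below the lowest UUO7 value. Slc22a8 had the greatest rise, to 69.05, 67.7, 78.2 and 94.3 FPKM (2.71, SE 0.27, adjusted p = 7.6e-07), and Slc22a22 (1.88), Slco1a1 (1.87), Slc22a28 (1.72) and Slc22a6 (1.69) followed. Abcg2, Abcc6, Slco1a6, Abcb8, Slc22a26 and Slc22a29 were lower in UUO7 than in sham and were not called higher in R4W than in UUO7. Between R1W and R4W 6 transporters rose, where 13.6% of all genes were called, 4.99% higher and 8.60% lower: Slc22a8 (1.18), Slc22a6 (0.75), Slc22a4 (0.64), Abcc2 (0.46), Slc22a23 (0.43) and Abcb1a (0.37). The calls of Slc22a8 and Slc22a4 held in all 8 fits that left out 1 library. Slc22a6 lost its call without R1W replicate 2 or 3 or R4W replicate 1, 3 or 4, Abcc2 without R1W replicate 2 or 3 or any 1 R4W animal, Slc22a23 without R1W replicate 3 or R4W replicate 1 or 4, and Abcb1a without R1W replicate 3 or R4W replicate 4. With R4W replicate 2 placed in R2W, as its treatment label has it, Abcc2 and Abcb1a were not called and the count was 4. The count was 2 without R1W replicate 3 or R4W replicate 4 and 3 without R4W replicate 1, and with only R1W and R4W in the model it was 0, with 11 at an unadjusted p under 0.05.

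R2W animals differed widely within the group. Slc22a6 measured 78.9, 145, 80.0 and 139 FPKM in R2W replicates 1 to 4, and Slc22a8 39.6, 73.0, 24.5 and 67.4. Slc22a12 measured 397, 746, 404 and 573. In all 3 genes replicates 2 and 4 were higher than replicates 1 and 3. The proximal tubule sums were 2255, 4105, 2343 and 3456 FPKM in the same order and the macrophage sums 2021, 823, 1652 and 1055. In R4W the spread was narrower, with Slc22a6 at 140.2, 119, 151 and 158.

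At 4 weeks 32 transporters differed from sham, 9 higher and 23 lower, where 40.5% of all genes did, 28.9% higher and 11.6% lower. At 1 week 34 had done so, 8 higher and 26 lower, against 48.4% of all genes (33.7% higher and 14.7% lower), and at 2 weeks 30, 7 higher and 23 lower, against 44.0% (31.1% higher and 12.9% lower). Without sham replicate 2 the counts were 34, 33 and 32 at 1, 2 and 4 weeks. R1W, R2W and R4W were all compared with the same sham animals. The scaling moved the split: at 2 weeks it was 12 higher and 23 lower on the deposited values and 7 higher and 31 lower on the rescaled values, and at 4 weeks 13 higher and 23 lower on the deposited values and 9 higher and 31 lower on the rescaled values.

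The 28 genes that were lower in UUO7 had R4W means from 33.6% of sham for Slc22a26 to 98.6% for Abcb10. Slc22a6 stood at 52.6% of sham, with all 4 R4W animals below all sham animals (−0.93, SE 0.23, adjusted p = 0.0014). Its neighbour Slc22a8 stood at 73.4%, also without overlap (−0.45, SE 0.27, adjusted p = 0.15), and was called lower with rescaled values only (adjusted p = 0.022). Slc22a7 stood at 48.2%, Slc22a12 at 53.2%, Slc22a2 at 56.2%, Slc47a1 at 61.1% and Abcg2 at 60.7%, all called lower. Slco1a1 reached 35.0%, with 16.2, 26.8, 35.3 and 32.0 FPKM, of which the highest lay just below sham replicate 2 at 36.6. Slco4c1, Abcb10 and Slc22a23 were, like Slc22a8, not called lower at 4 weeks.

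**Figure D5:**
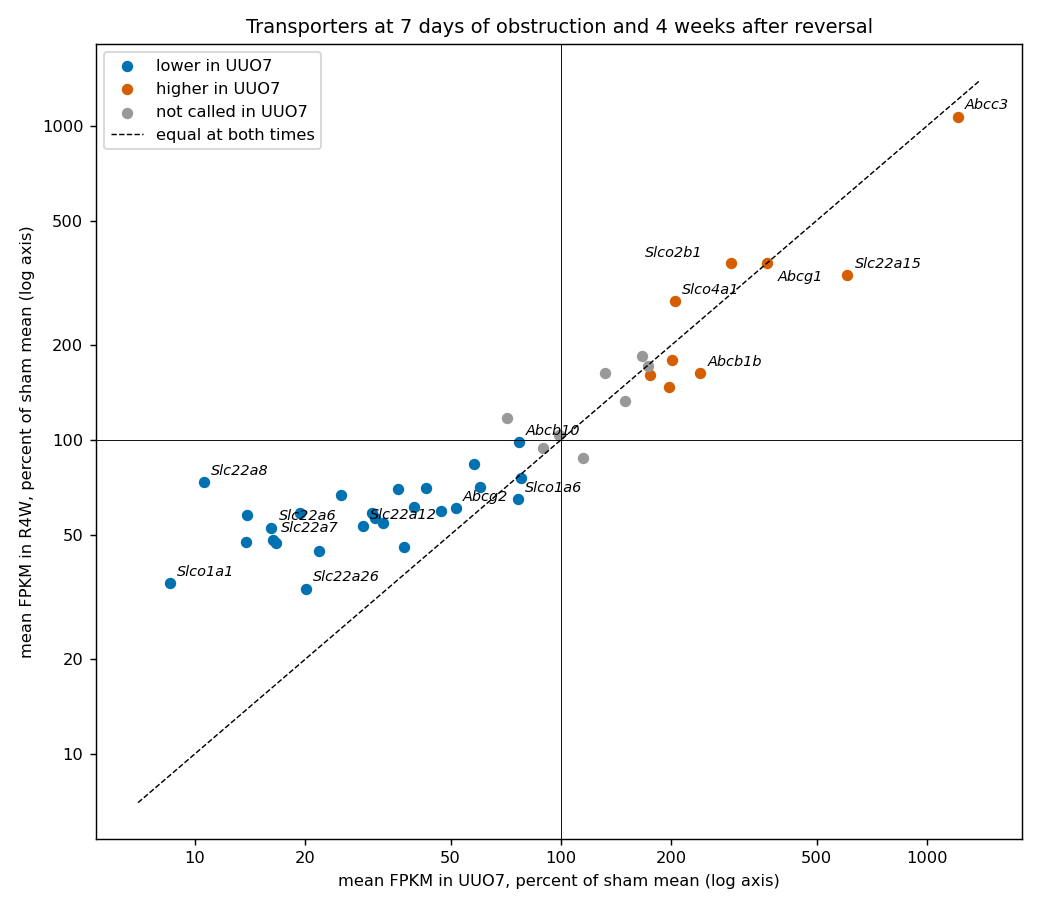
Mean FPKM of 43 transporters as a percent of their sham means, in UUO7 (horizontal) and R4W (vertical), on log axes; the dashed line marks equal values and colours the call in UUO7. Blue points lie below 100% on both axes and nearly all above the dashed line, with Slc22a8 farthest above it, while Abcc3, Abcg1 and Slco2b1 lie near the line.

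The 9 genes higher than sham at 4 weeks were Abcc3, Abcg1, Slco2b1, Slc22a15, Slco4a1, Slco2a1, Abcc5, Abcc1 and Abcc4. Abcc3 measured 9.90, 9.30, 11.9 and 7.92 FPKM in R4W, 1072% of the sham mean, and every R4W animal lay above the highest sham animal, at 1.93 (2.55, SE 0.24, adjusted p = 2.1e-08). Slco2b1 measured 12.0, 14.5, 13.6 and 10.8 (1.62, SE 0.14, adjusted p = 7.2e-09). Slco4a1 measured 39.7, 19.4, 34.2 and 30.6, and sham replicate 2 lay within that range (1.71, SE 0.38, adjusted p = 5.5e-04; 2.24 without sham replicate 2). The 4 urothelium markers summed to 117, 36.8, 86.8 and 67.2 FPKM in the same R4W animals. Of these markers 4 of 4 were higher than in sham, where 28.9% of all genes were, and their part in the Slco4a1 values was not tested. Abcc4 lost its call in 7 of the 8 fits leaving out 1 library, all but the one without sham replicate 2, and Abcc5 without sham replicate 1, 3 or 4 or R4W replicate 3. Abcb1b, at 164% of sham, and Slc22a21, at 147%, were not called with rescaled values (adjusted p = 0.22 and 0.38).

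The 10 partner genes that set the ion gradients, carry the exchanged anions or anchor the transporters at the brush border were lower in UUO7 in 10 of 10 cases and lower in R4W in 7 of 10, where 17.8% and 11.6% of all genes were lower. The scaffold Pdzk1 fell from a mean of 617 FPKM in sham to 207 in UUO7 and was 347 in R4W. Of 13 measured transcription factors and nuclear receptors known for control of transporter genes, 6 were lower in UUO7 (Hnf4a, Hnf4g, Nr1h3, Ppara and Rxra among them) and 4 higher (Ahr, Cebpb, Nfe2l2 and Nr1i2), where 17.8% of all genes were lower and 36.5% higher. Hnf4a, a regulator of proximal tubule genes, averaged 182 FPKM in sham, dropped to 63.0 in UUO7 and was 99.9 in R4W. It was lower than sham in UUO7 and in R4W, where 5 of the 13 were lower and 2, Ahr and Nfe2l2, were higher, against 11.6% lower and 28.9% higher over all genes.

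The authors' deposited table also holds their own log2 fold changes and adjusted p-values for these comparisons. At an adjusted p under 0.05 it calls 39 transporters in UUO7 against sham, 6 higher and 33 lower, and 34 of the 37 calls made here are among them with the same direction. The other 3, Abcc5, Abcg1 and Slco4a1, have the same sign in the authors' deposited table without an adjusted p under 0.05. For UUO2 against sham that table calls 32, 4 higher and 28 lower, with 29 of the 31 calls made here among them. The other 2, the rises of Abcc3 and Abcc4, have the same sign there without an adjusted p under 0.05. For R4W against sham the authors' deposited table calls 38, 7 higher and 31 lower, with 30 of the 32 calls made here among them. Over the 9 comparisons the authors' deposited table has an adjusted p under 0.05 with the opposite sign to the fold change here in 14 cases, none of them called here, in Abcb6, Abcb8, Abcb1a, Abcc10 and Slco1a6. In UUO7 against sham these were Abcb6, with a log2 fold change of −1.13 and an adjusted p of 5.54e-36 in the authors' deposited table, and Abcb1a, with −0.43 and 0.038.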

How the data were processed

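Groups and replicate numbers came from the sample titles. The authors deposited one table of expression values. No source used here states their unit, and FPKM was inferred from the deposited values: column sums ran from 717415 to 830179, a ratio of 1.16, and sums weighted by transcript length had a ratio of 1.08. RSEM, Bowtie2, DESeq2, FastQC and mm10 are named in the submitters' processing notes, with no version or role. The lowest gene mean was 1 FPKM, so genes below it are not analysed here, and neither are Slc22a3, Slc22a27, Slc47a2 and Slco1a4. The table holds no counts, so the depth is unknown and no counting interval is given. The authors' deposited log2 fold changes and adjusted p-values were used only where named; their direction was read from their slope against the sample columns.

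All 24 libraries entered one model on log2(FPKM + 1) with 1 coefficient per group (limma 3.58.1, lmFit and eBayes with trend, R 4.3.3), and p-values were adjusted by Benjamini-Hochberg over 14785 genes. A call needed an adjusted p under 0.05 in 1 direction with deposited and with rescaled values. Mean scaling factors were 0.814 in sham and 1.14 in UUO7. On simulated data for UUO7 against sham 187 of 200 genes changed by 1 log2 unit were recovered, with 10 unchanged genes called among 14785. The simulation used 1 scaling, raised as many genes as it lowered and drew them from those above a set sham level. It held no shift in library composition, so it does not test the call on both scalings. Replicates are separate animals.

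The members, roles, marker lists and partner lists were chosen with earlier results of these data known. Genes were named from a list of textbook transporters, plus up to 3 rises and 3 falls of greatest fold change per comparison among called genes without overlap; this gave 33 of the 45. Slc22a17, Slc22a18, Slc22a23, Slco4a1, Abcc5, Abcc6, Abcc10, Abcb6, Abcb8, Abcb9 and Abcb10 were named after their values were seen. Some genes are counted and not reported by name here. Start and end of 38 of the 45 genes equal those of the GRCm38 annotation used here. Shared sequence was counted as 100-base stretches of a gene's transcripts found in another gene. Strand use in counting is not given in the sources used here, and Slc22a12, Slco4c1, Slco1a6 and Abcb10 overlap measured genes on the opposite strand. Of the marker and partner lists Nr1i3, Cd79a, Ms4a1 and Lep are not analysed here. Endothelium, pericyte, thick limb and lymphocyte markers were summed too: from sham to UUO7 the sums went from 57.5 to 139, 57.2 to 349, 2692 to 1421 and 0.89 to 7.25 FPKM. Alternatives were pseudocounts of 0.1 and 10, a mean of at least 5 FPKM, an adjusted p under 0.01, each scaling alone, a replicate block, only the 2 groups compared, leaving out UUO2 or each library, and R4W replicate 2 placed in R2W.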

Additional observations from a re-analysis of the deposited data

Results flagged for a closer look

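Of 270 levels (45 genes in 6 groups of 4), 18 held an animal whose gap to the nearest other value exceeded Dixon's critical share of the group's range, where chance gives about 13.5, or 1 in 20. Sham replicate 2 held 9 of them. It was high in Abcc4 (12.6 FPKM), Abcc5 (18.6), Abcg1 (5.16) and Slc22a15 (2.14), and low in Abcc6 (6.31), Slc22a18 (357), Slc22a19 (59.6), Slc47a1 (213) and Slco3a1 (57.3). UUO7 replicate 4 was high in Abcc4 (14.0), Slc22a23 (7.81) and Slco2a1 (10.4). R1W replicate 2 was high in Abcc4 (15.3) and low in Abcb8 (24.5). Single animals stood out in Abcb10 (sham replicate 4, 7.91), Abcb1a (UUO7 replicate 3, 1.01), Slc22a8 (UUO2 replicate 2, 31.3) and Abcc5 (R4W replicate 3, 27.5).

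Slco1a6 and Slc22a17 had all animals of UUO2 on one side of every sham animal and all animals of a later group on the other. Slco1a6 was above sham in UUO2 and below it after reversal, with differences from UUO2 of −1.11 in R1W, −0.98 in R2W and −1.004 in R4W on log2(FPKM + 1). In the authors' deposited table Slco1a6 is instead lower in UUO2 than in sham, with a log2 fold change of −0.62 and an adjusted p of 2.37e-06. Slc22a17, a receptor of lipocalin-2, was below sham in UUO2, at 15.5, 19.6, 16.0 and 18.8 FPKM against 22.2 to 24.7. It was above sham in UUO7, at 34.4, 35.4, 33.3 and 39.6 FPKM, and after reversal. Its differences from UUO2 were 0.995 in UUO7, 1.005 in R1W, 0.95 in R2W and 0.83 in R4W. With rescaled values it was not called higher than sham in UUO7 (adjusted p = 0.30, limma) or in R4W (adjusted p = 0.73). For both genes the contrast of UUO7 with UUO2 was tested, and the differences of R1W, R2W and R4W from UUO2 were not tested.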

How the results depend on the processing

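Over the alternatives, 0 of the named fold changes changed sign. Counts of called transporters stayed within 1.5 times of the reported ones except in both comparisons between recovery and earlier times with few calls. R1W against UUO7 gave 5 calls at an adjusted p under 0.01, in place of 12. R4W against R1W gave 1 at an adjusted p under 0.01 and 0 with only those 2 groups in the model (11 at an unadjusted p under 0.05), in place of 6; the cause was not tested. Leaving out 1 library gave 29 to 33 calls in UUO2 against sham, 35 to 39 in UUO7 against sham, 22 to 25 in UUO7 against UUO2, 6 to 15 in R1W against UUO7, 21 to 24 in R4W against UUO7, 2 to 7 in R4W against R1W, 30 to 34 in R1W, 28 to 33 in R2W and 29 to 32 in R4W against sham. Of 229 single calls, 34 were lost in at least 1 such fit. UUO7 against UUO2 had 8 higher and 15 lower transporters where 44.7% of all genes were called, and 8 higher and 26 lower with rescaled values alone. With R4W replicate 2 placed in R2W, R4W against sham gave 30 calls, without those of Slc22a22 and Abcc4, and R4W against R1W gave 4, without those of Abcc2 and Abcb1a. Replicate numbers did not pair the animals (deviations of same-numbered animals correlated above 0.1 in at most 2 of 4 pairs); with a replicate block UUO7 against sham kept 37 calls, R4W against sham 32, R1W against UUO7 10 and R4W against R1W 5. The depth is unknown, so the precision of the lowest genes cannot be given.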
